A study of Arabidopsis thaliana with 17 samples.

Results

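The JAZ genes of Arabidopsis thaliana encode the repressors of jasmonate signalling, and the positions and ranks of open chromatin around them are described here across root, seed coat and flower. The 10 genes were taken by name (JAZ1, JAZ2, JAZ3, JAZ5, JAZ6, JAZ7, JAZ8, JAZ9, JAZ10 and JAZ12) out of 27444 protein-coding genes of the nuclear chromosomes. Below, the JAZ genes are these 10, and JAZ genes with other numbers were not examined. A peak was tied to a gene when its centre lay between 2000 bp upstream of the transcription start site (TSS) and 500 bp past the 3-prime end. The genes were chosen by the score percentiles of these same peaks, so the values are given as a description and no test was run.

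Open chromatin was mapped by DNase I sequencing of captured nuclei, and the deposited peak lists give each peak a position and a score. All plants were Col-0 carrying an INTACT transgene pair, in which a nuclear tag (NTF) is biotinylated by birA under the ACT2 promoter. In whole roots of 7-day seedlings (2 lists) and in open and unopened flowers (1 list each) the tag was driven by the UBQ10 promoter. The GL2 promoter drove it in the epidermal cells of the root that bear no hair (non-hair, 4 lists), where replicate 2 came from 7-day and replicates 1, 3 and 4 from 10-day seedlings. The same GL2 line gave the seed coat nuclei, taken from whole siliques, with 2 lists at 4 days past anthesis (DPA), of which 1 is pooled, and 1 pooled list at 7 DPA. The ADF8 promoter drove it in root hair cells of 7-day seedlings (2 lists, of which 1 is pooled), so cell type, driver line and mostly age differ together between hair and non-hair. Each pool joins reads of 2 libraries.

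The value of a gene in a list is the percentile, among all nuclear peaks of that list, of the score of its highest peak, with 100 as the top and 0 where the gene has no peak. It is a rank among peaks and not a read count, and it says nothing of transcription. The 11 root and seed coat lists carry the mark 6.8M, read here as a common read number, and hold between 24751 and 30110 peaks. The flower lists have no such mark, their depth is unknown, and they hold 11748 (open) and 13098 (unopened) nuclear peaks. Overlapping peaks of the 11 lists were merged into sites, and a site is named by the distance of its centre from the TSS in the direction of the gene.

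The labels were set against marker genes. Of 4 non-hair markers, GL2 and TTG2 had every non-hair list above every hair list. TTG2, a regulator of epidermal fate, stood between 39.6 and 60.7 in non-hair and at 7.12 and 7.46 in hair, and GL2 between 99.8 and 99.9 and between 69.0 and 73.4. WER (0 to 14.3 in non-hair, 4.25 and 11.9 in hair) and MYB23 (0 to 19.4, and 0) overlapped. The non-hair and seed coat plants carry a GL2 promoter in the transgene as well, and its reads cannot be told apart from those of the native gene. Of 7 root hair markers, 1 (PRP3) was higher in every hair list than in every non-hair list. The summed percentiles of these 7 ran from 307 to 324 in hair and from 239 to 326 in non-hair lists, so they do not separate the lists, and LRX1 was at 0 in every non-hair list and between 0 and 8.61 in the hair lists. In the seed coat lists, 3 of 6 seed coat markers stood above every root list, and so did 3 of 4 floral organ identity genes (AP3, AG and SEP3). The 4 floral genes summed to between 335 and 352 in seed coat lists and between 35 and 68.6 in root lists, where AP3 and AG were at 0. The part of floral or silique tissue in the seed coat values below was not tested.

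Jasmonate is a lipid-derived hormone of wounding, defence and flower development. JAZ proteins bind MYC2 and related bHLH factors and recruit the corepressor TOPLESS (TPL), mostly through the adaptor NINJA, which keeps jasmonate-responsive genes off. The hormone conjugate jasmonoyl-isoleucine glues JAZ proteins to the F-box protein COI1, they are degraded, and the MYC factors are released. MYC2 binds G-box sequences, and many JAZ genes are themselves among its targets, which makes the repression a feedback loop.

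The following stretches are the central 150 bp of selected sites, read from the RefSeq TAIR10.1 assembly and written 5′ to 3′ on the strand of the gene. The sites that set the gene values of JAZ5, JAZ7 and JAZ10 in the root lists are not among them. Capitals mark the G-box (CACGTG) and the T/G-box (AACGTG, or CACGTT when read on the other strand). Among the upstream sites with every non-hair list above every hair list, JAZ2 at -109 and JAZ3 at -212 are not printed. The JAZ3 site (70.9 to 91.2 in non-hair, 64.7 and 66.2 in hair) held no G-box in its central 150 bp. The first 4 stretches are the other upstream sites of that class. They lie at chr1:6620931-6621080 (plus strand), chr1:28150981-28151130, chr1:5957951-5958100 and chr1:27276911-27277060 (minus strand for these last 3).
JAZ1 site at -772: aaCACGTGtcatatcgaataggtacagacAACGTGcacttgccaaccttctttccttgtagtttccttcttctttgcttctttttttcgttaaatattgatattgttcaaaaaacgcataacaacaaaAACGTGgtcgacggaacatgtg
JAZ2 site at -609: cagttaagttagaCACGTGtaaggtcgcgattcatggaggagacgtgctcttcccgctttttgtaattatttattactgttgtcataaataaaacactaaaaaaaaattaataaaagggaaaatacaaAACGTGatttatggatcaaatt
JAZ5 site at -514: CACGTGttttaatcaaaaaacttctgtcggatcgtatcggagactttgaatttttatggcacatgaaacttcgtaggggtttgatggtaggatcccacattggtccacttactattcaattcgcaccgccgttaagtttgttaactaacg
JAZ6 site at -423: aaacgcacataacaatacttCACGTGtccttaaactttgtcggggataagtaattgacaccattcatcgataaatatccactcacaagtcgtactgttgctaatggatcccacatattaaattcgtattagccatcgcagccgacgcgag

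The next 3 are shown for contrast, and all lie on the plus strand. They are the JAZ12 site seen in every list (chr5:7090471-7090620), a JAZ9 site of root lists only (chr1:26653821-26653970) and the site past the end of JAZ9 that ranked high in seed coat and flowers (chr1:26657611-26657760).
JAZ12 site at -159: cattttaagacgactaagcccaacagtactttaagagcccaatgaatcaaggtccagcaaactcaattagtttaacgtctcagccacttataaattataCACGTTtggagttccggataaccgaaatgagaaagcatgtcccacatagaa
JAZ9 site at -634: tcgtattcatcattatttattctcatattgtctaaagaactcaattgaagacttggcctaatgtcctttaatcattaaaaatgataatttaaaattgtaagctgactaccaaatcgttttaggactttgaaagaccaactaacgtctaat
JAZ9 site at +3156: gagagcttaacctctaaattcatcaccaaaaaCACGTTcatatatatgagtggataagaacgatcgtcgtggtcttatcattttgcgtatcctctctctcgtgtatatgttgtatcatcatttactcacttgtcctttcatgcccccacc

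Each of the first 4 stretches held 1 G-box, and those of JAZ1 and JAZ2 held a T/G-box as well (2 and 1). The JAZ9 root-only stretch held neither motif. JAZ5 and JAZ6, a closely related pair, shared an identical run of 11 bases (ggatcccacat), the longest among the 21 pairs of these 7 stretches, for which the longest shared run ranged from 6 to 11 bases. The stretches held between 28.7% (JAZ9, root-only) and 41.3% (JAZ6) G and C.

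The JAZ windows were rich in peaks. Of the 10 genes, 9 had a peak in every one of the 11 lists, against 58.1% of the genes with a peak in any of them. JAZ8 was the exception. The median percentile of the JAZ genes lay between 78.3 and 92.1 over the 11 lists, and that of all genes with a peak between 54.6 and 62.7. A JAZ window held a median of 2.95 peaks per list, against 1.27 for all genes with a peak in any of the 11 lists. In flowers, 10 of the 10 had a peak in the open list (39.1% of all genes) and 9 in the unopened list (42.1%), again without JAZ8. The windows held 53 of the 49442 sites, and the nearest TSS was that of the JAZ gene itself at 39 of them. Sites present in all 11 lists made up 28.3% of the JAZ sites (15 of 53) and 21.6% of all sites. Those of a single list made up 18.9% (10 of 53) and 18.1%.

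Ordered by the mean over the 11 lists, JAZ1 (96.7 ± 2.22, SD over lists), JAZ12 (95.8 ± 2.81), JAZ6 (94.9 ± 3.67) and JAZ3 (91.1 ± 11.9) stood highest. JAZ2 (86.8 ± 9.89), JAZ9 (84.4 ± 4.00), JAZ5 (77.8 ± 9.74), JAZ7 (72.9 ± 6.63) and JAZ10 (65.3 ± 13.7) followed, and JAZ8 was lowest at 25.3 ± 18.8. Between neighbours in this order the means differed by less than the larger of the 2 SDs, except between JAZ10 and JAZ8, which lay 40.01 points apart with JAZ10 higher in 10 of 11 lists.

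**Figure D1:**
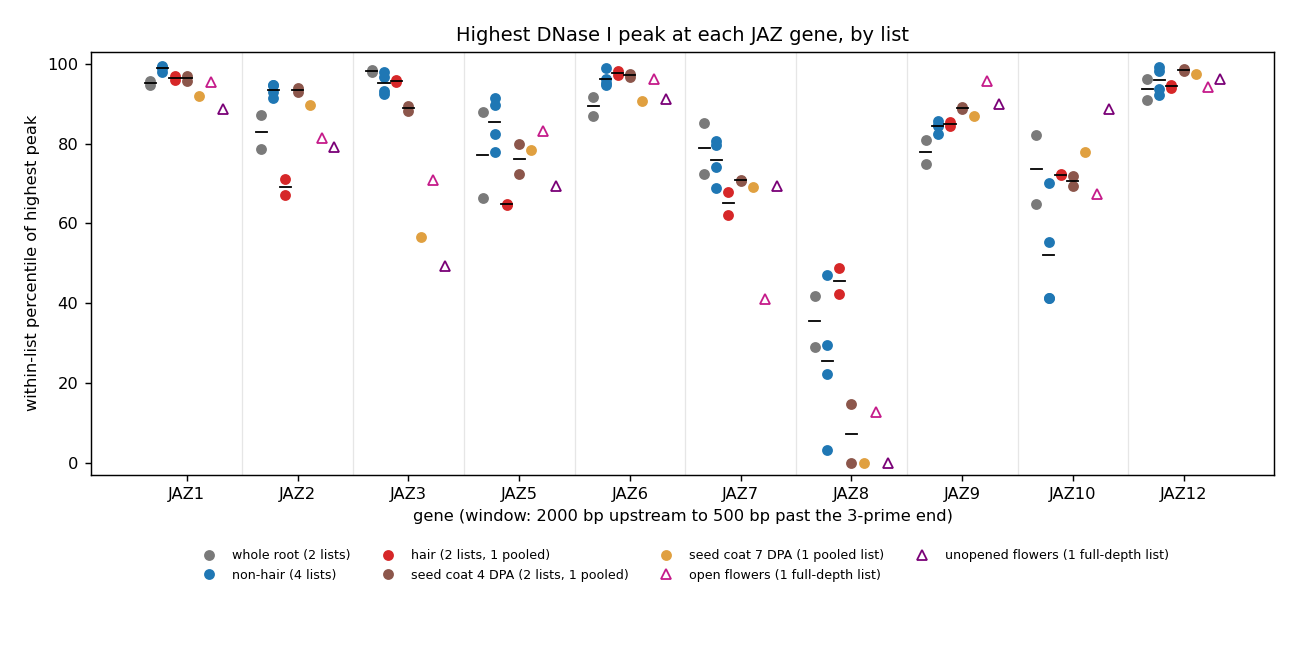
Within-list percentile (vertical axis, 0 to 100) of the highest DNase I peak at each JAZ gene, 1 point per list, coloured by tissue, with bars at the mean of groups with more than 1 list and open triangles for the full-depth flower lists. JAZ2 shows the hair lists (67.2 and 71.2) below all others, JAZ3 the 7 DPA seed coat (56.7) and flowers below the root lists, and JAZ8 lies under 50 in every list.

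Between the epidermal cell types, JAZ1, JAZ2, JAZ5 and JAZ7 had every non-hair list above every hair list, which is 4 of 10 genes against 21.1% of all genes with a peak in these 6 lists. JAZ10 had the reverse order, 1 of 10 against 9.1%. The median of the non-hair minus hair difference was 0.47 points over the JAZ genes, with 5 positive and 5 negative. It was 3.44 points over all genes with a peak in these 6 lists. The 4 genes stood above both hair lists in the 7-day non-hair list too, as the count requires. With narrower windows, other rules that tie peaks to genes, or fewer peaks per list, the count was 3.

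**Figure D2:**
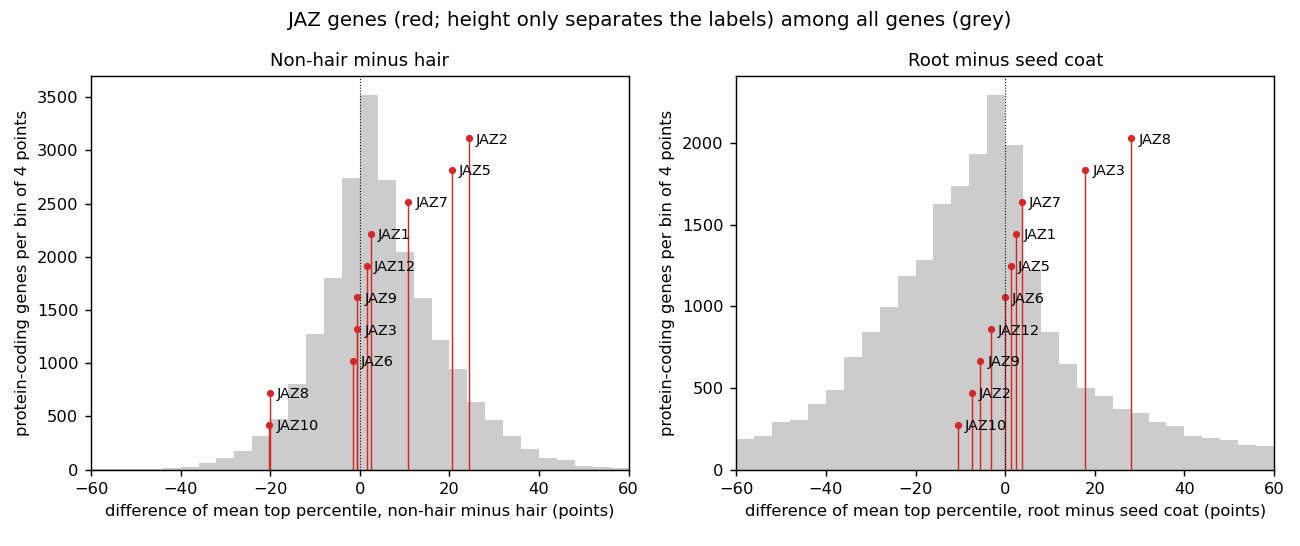
Difference of mean top percentile in points (horizontal axis) for the 10 JAZ genes (red, with height used only to separate the labels) over the histogram of all genes (grey, genes per bin of 4 points), for non-hair minus hair on the left and root minus seed coat on the right. JAZ2 (24.3) and JAZ5 (20.5) lie to the right and JAZ8 and JAZ10 (both near -20) to the left in the first panel, and JAZ8 (28.1) and JAZ3 (17.9) to the right in the second.

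JAZ2 (AT1G74950, chr1:28148574-28150446, minus strand; TIFY10B in RefSeq) showed the largest of these differences. JAZ1 and JAZ2 form a closely related pair of repressors. The highest JAZ2 peak, at the -609 site (intergenic, chr1:28150821-28151290), stood at 93, 91.4, 94.8 and 94.7 in non-hair replicates 1 to 4 and at 67.2 and 71.2 in hair replicate 1 and the hair pool. Whole root gave 87.1 and 78.7, the 4 DPA lists 94.0 and 92.9, the 7 DPA pool 89.7, and open and unopened flowers 81.3 and 79.1. The hair lists were thus the lowest of all 13 and did not overlap any other group. The means were 93.4 ± 1.61 (SD, n = 4) in non-hair and 69.2 ± 2.85 (n = 2) in hair, a gap of 24.3 points that is several times either SD. A second JAZ2 site, at -109, showed the same order, with non-hair between 56.4 and 80.9 and hair at 41.2 and 42.4. It also held a G-box, and it had no peak in the flower lists. Within the -609 site the peaks did not coincide. The highest non-hair peaks were centred at -769 (replicates 1 and 2) and -669 (replicates 3 and 4), and the hair peaks at -569 and -469. Non-hair replicate 1 had another JAZ2 peak at -449, which stood at 77.3, against 71.2 for the hair pool at -469. The JAZ2 gap is thus between the highest peaks of the window, which lie at different places, and was smaller at that nearly matching position.

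JAZ1 (AT1G19180, chr1:6621777-6623668, plus strand) was at 92 or higher in every list but that of unopened flowers. Its highest peak was at 97.9, 99.1, 99.1 and 99.4 in non-hair replicates 1 to 4, and at 96.0 and 96.9 in hair. It was at 95.7 and 94.7 in whole root, 97, 95.7 and 92 in the 3 seed coat lists, and 95.4 and 88.6 in open and unopened flowers. The 92 of the 7 DPA pool came from the +1898 site, within 400 bp upstream of the TSS of the neighbour AT1G19190. In that list the highest peak upstream of JAZ1 stood at 88.9. The non-hair lists were above the hair lists with a gap of only 2.47 points between the means. The difference was larger in where the peaks lay. The -772 site (chr1:6620821-6621190, intergenic), whose centre is printed above, had a peak in 4 of 4 non-hair lists (97.9, 96.9, 99.1 and 99.4) and in neither hair list. This makes JAZ1 1 of 10 genes with a site of non-hair lists alone, against 4.36% of genes, and 0 of 10 had a hair-only site, against 1.41%.

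The -772 site, as merged, was not particular to non-hair cells. It was also called in whole root replicate 2 (94.0), in the 3 seed coat lists (97, 95.7 and 88.9) and in both flower lists (95.4 and 88.6). Its peaks did not coincide, however. They were centred at -782, -682, -702 and -702 in non-hair replicates 1 to 4 and at -662 in whole root replicate 2. The 4 DPA peaks lay at -882 and shared no base with those of non-hair replicates 2 to 4. The 7 DPA and flower peaks lay at -762 and overlapped those of all 4 non-hair lists. The next site, at -412 (chr1:6621241-6621490), was called in 4 of 4 non-hair lists, in whole root replicate 1 and in both hair lists (96.0 and 96.9), and in no seed coat or flower list. The nearest hair peak lay 90 bp from the -772 site, and when peaks up to 100 bp apart were merged no JAZ gene had a non-hair-only site. Another JAZ1 site, in the 5-prime UTR at +148, was seen in 3 of 4 non-hair lists, whole root replicate 2, the 3 seed coat lists (90.1, 86.3 and 78.5) and both flower lists, and in neither hair list.

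JAZ5 (AT1G17380, chr1:5955155-5957511, minus strand) and JAZ6 (AT1G72450, chr1:27273968-27276562, minus strand) form another related pair. The highest JAZ5 peak stood at 77.9, 82.4, 89.7 and 91.5 in non-hair and at 64.7 and 65 in hair. Whole root gave 87.9 and 66.5, seed coat 79.9, 72.5 and 78.5, and open and unopened flowers 83.3 and 69.4. In the root lists, however, this peak was the one at the 3-prime end (+2356), which lies within 400 bp upstream of the TSS of the neighbour UBP1B, a gene for an RNA-binding protein. The site upstream of JAZ5 itself, at -514 (chr1:5957681-5958370), is wide, and its JAZ5 peaks were centred between -784 and -244 in non-hair and at -764 and -664 in hair. It ranked lower but kept the order. It stood at 63.9, 48.0, 39.8 and 60.9 in non-hair, 32.6 and 26.1 in hair, and 32.1 and 35.8 in whole root. In the seed coat lists it stood at 79.9, 68.3 and 69.1, above all 8 root lists, and in open and unopened flowers at 83.3 and 69.4.

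JAZ6 was high everywhere, at 98.9, 96.3, 94.6 and 95.3 in non-hair, 98.2 and 97.2 in hair, 91.7 and 87.0 in whole root, and 97.5, 96.8 and 90.7 in seed coat. The cell types overlapped in this value, and the site that was highest changed with the tissue. The G-box site at -423 (chr1:27276861-27277110) stood between 83.3 and 95.3 in non-hair and at 83.1 and 79.0 in hair, so the nearest lists almost touched, and at 97.5, 96.8 and 90.7 in seed coat. The -933 site (chr1:27277361-27277630) had the reverse order, with hair at 95.7 and 89.8, non-hair between 74.6 and 87.8, and a single seed coat peak at 47.3. The -1773 site stood between 82.2 and 98.9 in root lists and at 73.0, 77.6 and 21.3 in seed coat, yet at 96.2 and 91.3 in flowers. Its nearest TSS is that of AT1G72460, not of JAZ6.

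**Figure D3:**
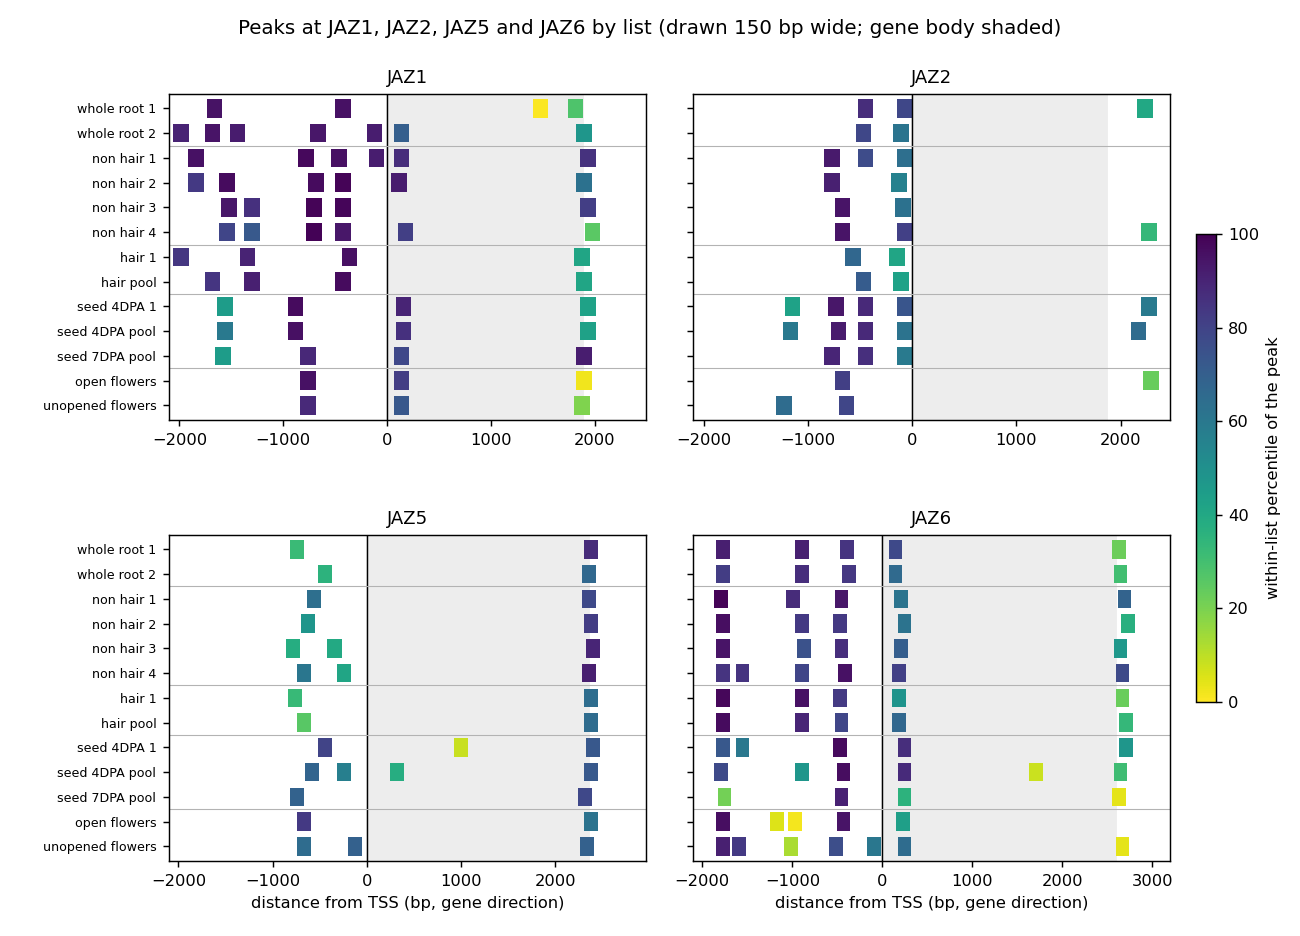
Positions of the peaks (horizontal axis, distance from the TSS in bp in the direction of the gene, gene body shaded) at JAZ1, JAZ2, JAZ5 and JAZ6, with 1 row per list and the colour giving the within-list percentile from 0 to 100. At JAZ1 the hair rows lack the block near -772, at JAZ2 the hair blocks are paler, and at JAZ6 the blocks near -933 are found in the root lists and rarely in seed coat.

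JAZ10 (AT5G13220, chr5:4218786-4221077, plus strand), known for splice variants that resist degradation, was the gene with hair above non-hair. The values were 72.3 and 72.2 in hair and 70.1, 55.4, 41.2 and 41.2 in non-hair, so both hair lists lay just above non-hair replicate 1 and well above the other non-hair lists. Whole root gave 64.9 and 82.2, seed coat 69.3, 71.9 and 77.8, and open and unopened flowers 67.3 and 88.6. All root values came from the -1781 site (chr5:4216881-4217130). Without it, in a window that starts 1000 bp upstream of JAZ10, the non-hair minus hair difference of -20.3 shrank to -1.18, and the site at the JAZ10 TSS itself (-11) stayed at or below 25.6 in all 11 lists. A site in the 3-prime UTR at +2089 stood at 69.3, 71.9 and 31.9 in seed coat and at 67.3 and 88.6 in flowers. In root it was called in 3 of 8 lists, at no more than 9.46.

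JAZ7 (AT2G34600, chr2:14573030-14573952, plus strand) and JAZ8 (AT1G30135, chr1:10596352-10597341, plus strand) are short relatives that carry an EAR motif and can bind TPL directly. JAZ7 stood at 80.7, 74.1, 68.9 and 79.6 in non-hair and at 67.8 and 62.2 in hair, with whole root at 85.3 and 72.5, seed coat between 69.1 and 70.9, and flowers at 41.1 and 69.4. These peaks lay at -1945 and -1525, at the start of the divergent neighbour AT2G34590, whose TSS is 1887 bp from that of JAZ7. At the JAZ7 TSS (site at -5) the order was the reverse, with 41.2 and 23.7 in hair and 3.06, 19.6, 0 and 22.7 in non-hair. JAZ7 therefore belongs to the 4 genes with non-hair above hair through peaks at the start of its neighbour and not through its own. Neither neighbour site alone separated the cell types, and the order arose only from taking the higher of them in each list. The -1945 site stood at 57.8 to 80.7 in non-hair and at 64.7 and 62.2 in hair. The -1525 site stood at 50.4 to 68.9 in non-hair and at 67.8 and 36.2 in hair.

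JAZ8 stood at 42.4 and 48.9 in hair, 3.06, 29.4, 22.3 and 47.0 in non-hair, and 41.8 and 29.0 in whole root. It had 14.6 in the first 4 DPA list and no peak in the other two seed coat lists, and 12.8 and 0 in open and unopened flowers. The root peaks lay at the sites -617 and -357, and the seed coat and open flower peaks in the 5-prime UTR at +63, where a G-box is found. Hair and non-hair overlapped, and so did root and seed coat.

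Over sites, 8 of the 42 JAZ sites seen in the 6 epidermal lists had every non-hair list above every hair list (13.1% of all such sites) and 4 had the reverse (9.91%). A G-box was found in 5 of those 8 (JAZ1 at -772, JAZ2 at -109 and -609, JAZ5 at -514, JAZ6 at -423). It was not found at the rest of the 8 (JAZ3 at -212, JAZ5 at +2356, JAZ6 at +2677). It was in 1 of the 4 with hair above (JAZ7 at -5), and in 1 of the other 30. Over all sites of the genome the non-hair-above class also held a G-box most often (17.5%), but the hair-above class (2.62%) held it less often than the rest (6.95%). A site merges peaks of several lists, and not every peak of it contains the motif. At JAZ2 -109 and JAZ6 -423 the G-box lay inside the peaks of 4 of 4 non-hair lists. At JAZ2 -609 and JAZ5 -514 it lay inside those of 2 of 4, and at JAZ1 -772 inside that of 1 of 4 non-hair lists. The hair peaks contained it in 1 of 2 lists at JAZ2 -109, in 2 of 2 at JAZ6 -423, and in 0 of 2 at JAZ2 -609 and JAZ5 -514. At JAZ7 -5, where hair was above, the G-box lay inside the peaks of 0 of 2 hair lists. There it lay inside those of 3 of the 3 non-hair lists that had the site.

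Taking all 53 JAZ sites, 9 held a G-box in their central 150 bp (17.0%), against 7.24% of all sites and 12.3% of sites present in all 11 lists. The T/G-box, searched as AACGTG on both strands, was in 11 of 53 (20.8%), against 6.12% and 6.54%. The variant CATGTG was in 10 (18.9%, against 10.51%), the W-box core TTGAC in 17 (32.1%, against 36.5%) and the GCC box GCCGCC in 1 (1.89%, against 1.17%). The G-box, the T/G-box and CATGTG differ in sequence, so the same letters cannot match 2 of them. In promoters, from 250 bp before to 50 bp after the TSS, a G-box was in 4 of 10 JAZ genes (JAZ2, JAZ3, JAZ7 and JAZ8), against 7.68% of all promoters. The T/G-box was in 4 of 10 (JAZ3, JAZ5, JAZ6 and JAZ12), against 8.95%. A match is a description of letters and does not show that a factor binds there.

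Between root and seed coat, JAZ3 had every root list above every seed coat list, 1 of 10 against 12.4% of genes, and JAZ9 had the reverse, 1 of 10 against 18.7%. The median root minus seed coat difference was 0.56 points over the JAZ genes, with 5 positive and 5 negative. It was -6.00 over all genes with a peak in these lists. A root-only site, called in 8 of 8 root lists and in no seed coat list, was found at JAZ3, JAZ7 and JAZ9 (3 of 10 against 12.4%). No JAZ gene had a seed coat-only site (0 of 10 against 13.4%). At site level, 6 of 53 had every root list above every seed coat list (11.2% of all sites) and 3 had the reverse (14.8%).

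JAZ3 (AT3G17860, chr3:6119707-6123044, plus strand), the gene of the dominant jai3 mutant, showed the clearest of these. Its highest peak stood at 98.5 and 98 in whole root, 93.2, 96.8, 97.9 and 92.5 in non-hair, and 95.4 and 95.9 in hair. Seed coat gave 88.1 and 89.6 at 4 DPA and 56.7 at 7 DPA, and open and unopened flowers 71.0 and 49.2. The lowest root list (92.5) was thus not far above the highest seed coat list (89.6), and the 7 DPA pool lay far under both 4 DPA lists.

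The internal site of JAZ3 made a sharper division. It lies 978 bp downstream of the TSS (chr3:6120561-6120810), in an intron of 2 and in the 5-prime UTR exons of another 2 of the 4 annotated transcripts. Its percentile ran from 92.1 to 98.5 over the 8 root lists, and it had no peak in the 3 seed coat lists or in either flower list. The nearest seed coat peak lay 930 bp away. All 3 root groups had it, so it did not distinguish hair from non-hair (95.7 ± 0.357, n = 2, and 94.8 ± 2.96, n = 4).

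Upstream of JAZ3 the 2 seed coat stages differed. The sites at -1162, -762 and -212 stood at 88.1, 74.9 and 86.3 in the first 4 DPA list and at 89.0, 89.6 and 72.5 in the 4 DPA pool, but at 35.9, 33.9 and 45.1 in the 7 DPA pool. With 1 pooled list at 7 DPA this difference has no replicate check. The same 3 sites were almost absent from flowers, with 19.5 at -1162 in open and 7.39 at -212 in unopened flowers. At 7 DPA and in flowers the value of JAZ3 was set by the +3608 site, within 400 bp upstream of the TSS of TDX.

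JAZ9 (AT1G70700, chr1:26654529-26657350, plus strand; TIFY7 in RefSeq), a close relative of JAZ3, had a root-only site and, at its other end, a seed coat and flower site. Its highest peak stood at 88.8, 89.3 and 87.1 in seed coat, 95.6 and 89.95 in flowers, 74.9 and 80.9 in whole root, between 82.4 and 85.6 in non-hair, and at 85.4 and 84.4 in hair. The lowest seed coat list (87.1) lay close above the highest root list (85.6). That gap was far wider at the +3156 site, past the 3-prime end (chr1:26657581-26657790, 335 bp beyond it, with JAZ9 as its nearest TSS). The site stood at 88.8, 89.3 and 87.1 in seed coat and 95.6 and 89.95 in open and unopened flowers. Root gave 32.1 and 27.8 in whole root and 15.3, 6.97 and 7.37 in 3 non-hair lists, with no peak in non-hair replicate 2 and in hair.

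The root-only site of JAZ9, at -634 (chr1:26653721-26654070), stood between 53.7 and 85.6 in the 8 root lists. A seed coat peak lay 170 bp from it, at the -234 site that was called in all 13 lists (61.6 to 88.4). Farther upstream, in an intron of HWI1, the -1624 site was higher in hair (72.3 and 79.0) than in non-hair (44.1 to 67.1) and had a single seed coat peak, at 9.90. Its peaks did not coincide. The hair peaks were centred at -1494, and the highest non-hair peaks at -1714 (replicates 1, 2 and 4) and -1534 (replicate 3). The root-only site of JAZ7, at -1525, lies in the promoter of AT2G34590, with a seed coat peak 210 bp away.

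**Figure D4:**
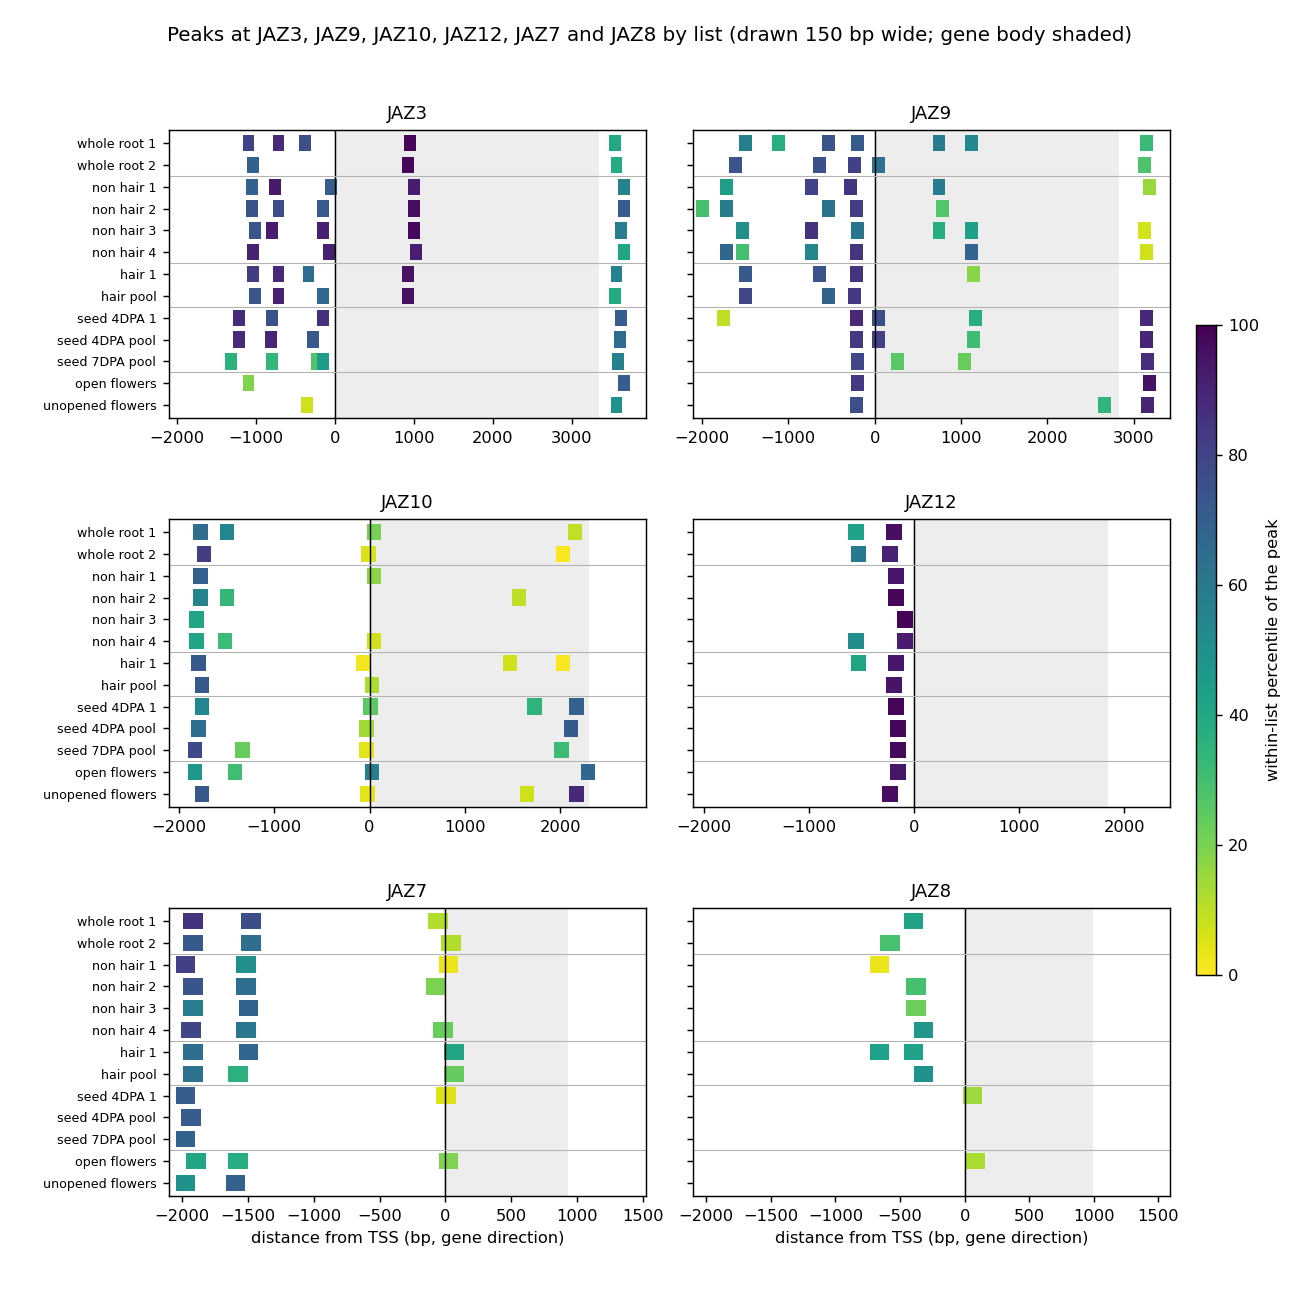
Positions of the peaks (horizontal axis, distance from the TSS in bp, gene body shaded) at JAZ3, JAZ9, JAZ10, JAZ12, JAZ7 and JAZ8, with 1 row per list and the colour giving the within-list percentile from 0 to 100. The internal JAZ3 block near +978 is present in the 8 root rows only, and the JAZ9 block near +3156 is dark in the seed coat and flower rows (87.1 to 95.6) and pale or missing in root.

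JAZ12 (AT5G20900, chr5:7090704-7092539, plus strand), a repressor kept stable by the ubiquitin ligase KEG, had no such division. Its highest peak in every list lay in the -159 site (chr5:7090401-7090690), within 400 bp upstream of the TSS. It stood at 96.3 and 91.0 in whole root, 93.8, 98.3, 99.2 and 92.2 in non-hair, 94.0 and 94.7 in hair, 98.6, 98.2 and 97.5 in seed coat, and 94.2 and 96.3 in flowers. Hair lay within the range of non-hair, and seed coat within the range of root. The divergent gene AT5G20890 starts 535 bp away, so the site lies between the starts of both genes.

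In flowers the JAZ windows held 33 sites, of which 30 overlapped a site of the 11 root and seed coat lists. Both flower lists shared 19, with 6 in the open list alone and 8 in the unopened list alone. The largest differences between stages in the gene value were at JAZ7 (41.1 open, 69.4 unopened), JAZ3 (71.0 and 49.2) and JAZ10 (67.3 and 88.6). The JAZ7 values came from different peaks near the start of AT2G34590, at -1895 in open and -1595 in unopened flowers. Those of JAZ3 came from the +3608 site near TDX, and those of JAZ10 from the +2089 site, whose nearest TSS is that of AT5G13230. At the TSS of JAZ10 the order was the reverse, with 57.6 in open and 4.10 in unopened flowers. With a single list per stage and unknown depth, these have no replicate check.

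The rest of the pathway was described through 52 genes of jasmonate synthesis, perception, transcription, turnover and response, of which 2 (MYB24 and FAD8) had no peak in the 11 lists. Every non-hair list was above every hair list at 6 of 52 (21.1% of all genes), and the reverse was true of 1 (9.1% of all genes), JAO3, which oxidises jasmonate (0 to 0.265 in non-hair, 5.77 and 15 in hair). The medians of the difference were 2.04 points for the list and 3.44 for all genes with a peak in the hair or non-hair lists. The 4 with the largest difference were DAD1, a phospholipase of jasmonate synthesis (42.4 to 69.9 in non-hair, 31.3 and 38.7 in hair), ST2A, which sulfates hydroxyjasmonate (6.42 to 35.2, and 0), and the synthesis enzymes LOX6 (86.7 to 95.1, and 69.5 to 75.7) and AOS (57.1 to 70.5, and 54.4 to 57.0). MYC2, named here after its values were seen because JAZ proteins bind it, stood at 93 to 99.0 in non-hair and 83.0 to 89.9 in hair.

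Between root and seed coat, 7 of the 52 had every root list above every seed coat list and 9 the reverse, against 12.4% and 18.7% of all genes, which are shares near those of the list. The median difference was -0.36 points, against -6.00 over all genes. The root side was led by JAV1, a repressor of jasmonate defence (85.6 to 99.1 in root, 0 to 24.3 in seed coat). It was followed by AOC2 (65.8 to 87.1, and 0 to 35.1), the jasmonoyl-isoleucine hydroxylase CYP94B1 (91.5 to 98.7, and 33.8 to 86.7) and MYC3 (93.1 to 99.5, and 68.3 to 84.8). AOC2 lies in a cluster with near-identical copies, so its peaks are uncertain. The seed coat side was led by JMT, which methylates jasmonate (0 to 1.09 in root, 61.1 to 98.8 in seed coat), ST2A (0 to 35.2, and 79.9 to 82.3), LOX2 (0 to 21.3, and 48.4 to 86.7) and OPCL1 (7.75 to 58.8, and 75.5 to 95.5).

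**Figure D5:**
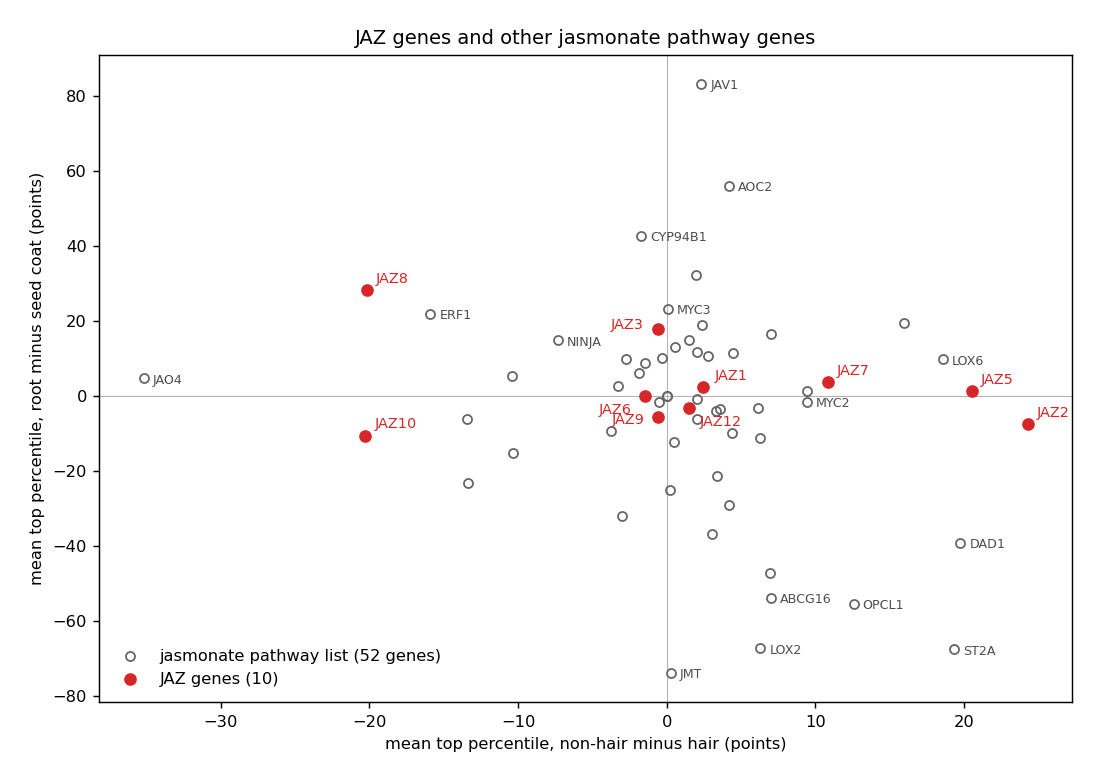
Difference of mean top percentile between non-hair and hair lists (horizontal axis, points) and between root and seed coat lists (vertical axis, points) for the 10 JAZ genes (red) and the 52 pathway genes (open circles). The JAZ genes lie between -10.6 and 28.1 on the vertical axis, while pathway genes reach 83.2 (JAV1) and -73.8 (JMT).

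Among 23823 genes that share no peak with a JAZ window, the 5 whose percentile over the 11 lists was most like the mean of the JAZ genes were APS1 (Pearson r = 0.93), AT1G75530 (0.91), CST (0.91), AT5G10460 (0.90) and AT3G62260 (0.90). These are descriptions over 11 lists that share driver lines and pools. The r values are the highest among the 23823 genes, so their size owes in part to that choice, and similarity beyond it was not tested. The mean of the JAZ genes itself moved little, from 73.9 in the 7 DPA pool to 82.4 in whole root replicate 1.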

How the data were processed

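Nuclei captured through biotin were digested with DNase I and small fragments with a cut at each end were sequenced, per the labels' protocols. The submitters' processing notes name Bowtie 0.12.7 and the build TAIR10, and the peak caller is not given in the sources used here. The authors deposited peak lists with a score per peak, a whole-number height, used here only to rank peaks within a list. There are 11 lists with the mark 6.8M and 2 full-depth flower lists in use, from 17 samples, and 4 DPA replicates 1 and 2 have identical lists and were counted once. The lists hold no read counts, so no counting error can be given, and the SD covers the spread between lists, which may in part be technical.

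Peaks were ranked over nuclear peaks (ties at their mean rank), tied to genes by peak centre, and merged into sites with a gap of 0 bp. Genes came from RefSeq TAIR10.1, whose 5 nuclear chromosomes hold all peaks. Motifs were searched on both strands. Python 3.11.15, pandas 2.3.3, pysam 0.24.0 and bedtools 2.31.1 were used, and the ranking and merging were tested on simulated data. Genes were called different where the groups did not overlap, with the share over all genes as background. No test was run. The genes, lists and motifs were chosen with earlier results of these data known. The text names all 10 JAZ genes, their highest sites and hair-only or non-hair-only sites, at most 4 pathway genes per direction by size, and the 5 most alike genes. Further sites, and the MYC genes between hair and non-hair, were named after their values were seen.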

Additional observations from a re-analysis of the deposited data

Results flagged for a closer look

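At the JAZ9 site at -234, non-hair replicate 3 stood at the 61.6 percentile while the other non-hair lists stood at 84.8, 82.4 and 84.5. Its distance from them is a larger part of the range of the 4 lists than Dixon's 95% critical value allows, a limit that chance passes in about 5% of groups. The limit served only to flag values and not as a test, and at that rate chance alone can give such a flag. The same list had its highest JAZ9 peak, at 85.6, at the -634 site.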

How the results depend on the processing

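Of 694 values under 25 alternatives, 607 moved by less than the spread between lists or, for counts, by no more than 1.5 times, 81 moved further, and 6 reversed the sign of a gene whose groups did not overlap. In all, 42 differences changed sign, 30 of them by less than that spread, so small differences have no stable direction. The median non-hair minus hair difference (0.47) became -0.57 with the narrower window and -0.75 with the promoter window, and the root minus seed coat median (0.56) became -2.03 with both and -3.06 with peaks nearest to the own TSS. JAZ5 (root minus seed coat, 1.22) turned to -30.1 with peaks nearest to its own TSS, and JAZ10 (-10.6) to 12.5 at full depth. The count with non-hair above hair (4) was 3 under 6 alternatives: both smaller windows, any overlapping peak, peaks nearest to the own TSS, equal numbers of peaks and the stricter threshold. The JAZ7 non-hair minus hair difference (10.8) reversed to -21.1 with the narrower window, the promoter window or peaks nearest to its own TSS, and to -0.931 when any overlapping peak counted. That of JAZ10 (-20.3) shrank to -1.18 and -0.946 in the smaller windows. In the full-depth lists, with 1 list per group, JAZ10 turned to 2.61 (non-hair minus hair) and JAZ9 to 2.49 (root minus seed coat), and the counts of genes became 7 with non-hair above hair, 3 with hair above, 2 with root above seed coat, 0 with seed coat above, 3 with a non-hair-only and 8 with a hair-only site. With 1 hair and 1 non-hair list at full depth, every gene with unequal values is called in 1 direction, so no such gene can overlap. A site found in only 1 of these lists likewise counts as hair-only or non-hair-only. The shares over all genes were not computed for the alternatives, so these counts have no background. The count with root above seed coat (1) became 0 in the promoter window and 2 when any overlapping peak counted, and root-only sites (3) became 1 in the promoter window. With peaks nearest to the own TSS, hair above non-hair and seed coat above root each counted 2. With equal numbers of peaks per list, 2 had hair above non-hair. A stricter peak threshold gave 2 genes with a non-hair-only and 1 with a seed coat-only site. Without pooled lists, 2 had a non-hair-only, 2 a hair-only and 4 a seed coat-only site. Merging over 100 bp left 0 with a non-hair-only site. With 7-day lists alone, an alternative chosen after seeing the data, 4 had hair above non-hair, 3 a non-hair-only and 1 a hair-only site. The remaining genes (JAZ1, JAZ2, JAZ3, JAZ5, JAZ7 and JAZ12) had non-hair above hair, so with that single non-hair list no gene overlapped.

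Leaving out 1 list at a time, non-hair above hair stayed at 4, seed coat above root at 1 and a peak in every list at 9. Hair above non-hair ranged from 1 to 2 (2 without non-hair replicate 1, non-hair replicate 4 or hair replicate 1), and root above seed coat from 1 to 2 (2 without non-hair replicate 1 or the first 4 DPA list). Non-hair-only sites ranged from 1 to 2 (2 without non-hair replicate 2 or 4, or hair replicate 1), hair-only sites from 0 to 1 (1 without the hair pool), root-only sites from 3 to 4, and seed coat-only sites from 0 to 1 (1 without whole root replicate 1 or the 7 DPA pool). The medians ranged from -0.25 to 1.28 (non-hair minus hair) and from -0.63 to 1.92 points (root minus seed coat). The causes of these changes were not tested. No paired analysis was possible because the replicate numbers were given in accession order, pair no lists across groups, and no result comes from a test.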
